A study of Mus musculus with 2 samples.

Results

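The scavenger and efferocytosis receptor genes described here are 10 of the 32285 genes counted in each library, namely Cd36, Msr1, Marco, Stab1, Cd163, Mertk, Axl, Timd4, Gpnmb and Trem2. They were taken from a list by name, and all 10 had a row in both count tables. The study overexpressed E4BP4, the transcription factor encoded by Nfil3, in macrophages of C57BL/6 mice and profiled live CD45+ cells of the colon lamina propria by droplet single-cell RNA sequencing at the 5′ end. The tested mice carried the E4BP4 transgene and the mice they were set against were wild type. All were 8 weeks old and had drunk 2.0% dextran sulfate sodium (DSS), which injures the colonic epithelium, for 7 days and then plain water for 7 days, with tissue taken on day 14. The labels say that the transgene is specific to macrophages but not which promoter drives it, nor how many mice gave each library.

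There was 1 library per genotype, so no test between genotypes was possible and no p-value is given. Ranges in brackets after a level or ratio are exact 95% limits of counting error alone. A gene was called apart when its level differed by at least 1.5-fold with at least 20 unique molecular identifiers (UMIs, each 1 captured transcript) over both libraries. The authors' metadata kept 7026 of 10143 cell barcodes in the library labelled transgenic (TG), with a median of 2427.5 UMIs, and 6466 of 9855 in the WT library, with a median of 2700 UMIs, and 67 kept barcodes occurred in both. Nfil3 did not check the label: in macrophage-like cells it stood at 73.8 CPM (the gene's UMIs over all UMIs of the same cells, on the usual CPM scale) in the library labelled TG and 84.4 CPM in the WT library, a ratio of 0.874 (0.724 to 1.06). It was lower in the library labelled TG in monocyte-like cells (0.864, 0.778 to 0.959) and dendritic-like cells (0.685, 0.493 to 0.957). Every direction below is therefore that of the library labelled TG against the WT library. The cells fall into 10 deposited clusters and, at a finer setting, 15. Cluster 1 (1106 cells labelled TG and 664 WT cells) had all 12 macrophage markers raised and is called macrophage-like, cluster 3 (437 and 814 cells) had 9 of 10 monocyte markers raised, and cluster 8 (282 and 132 cells) had 10 of 12 dendritic cell markers raised.

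Macrophages clear dying cells by efferocytosis, in which receptors recognise phosphatidylserine on the surface of an apoptotic cell. Timd4 and Stab1 bind phosphatidylserine directly, whereas the tyrosine kinases Mertk and Axl bind it through the bridging proteins Gas6 and Pros1. Scavenger receptors (Cd36, Msr1, Marco, Cd163) take up modified lipoproteins, bacteria, fatty acids or haemoglobin complexes. Trem2 senses lipids and signals through the adaptor Tyrobp, and Gpnmb is a membrane glycoprotein of the endosome and lysosome found in lipid-loaded macrophages. In the gut several of these receptors mark long-lived tissue macrophages more than freshly recruited monocytes.

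Of the receptors, 3 (Cd36, Axl and Gpnmb) were called higher in monocyte-like cells of the library labelled TG, where 14.9% of all genes were. These calls are unlike. There 42 of the 47 Gpnmb UMIs labelled TG came from the same cell, and neither the Cd36 nor the Gpnmb call held in every alternative run. The 250 bases before the start of each of the 3 genes are shown because this is where a basic leucine zipper factor such as E4BP4 could be looked for. They are RefSeq sequences of GRCm38.p6, the build known as mm10, written 5′ to 3′ on the gene's own strand. Capitals mark the letters of any of the 6 motifs searched. The Cd36 window is chr5:17835897-17836146 on the minus strand and lies within the span annotated as the Cd36 gene, which extends further upstream. The Axl window is chr7:25788734-25788983 on the minus strand and the Gpnmb window chr6:49036268-49036517 on the plus strand, both outside any annotated gene. None of the 3 windows overlaps an annotated exon.
Cd36: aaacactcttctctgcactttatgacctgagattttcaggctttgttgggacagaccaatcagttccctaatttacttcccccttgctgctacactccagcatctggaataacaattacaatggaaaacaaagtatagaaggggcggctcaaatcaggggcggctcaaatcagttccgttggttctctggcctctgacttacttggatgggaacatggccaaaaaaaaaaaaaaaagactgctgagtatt
Axl: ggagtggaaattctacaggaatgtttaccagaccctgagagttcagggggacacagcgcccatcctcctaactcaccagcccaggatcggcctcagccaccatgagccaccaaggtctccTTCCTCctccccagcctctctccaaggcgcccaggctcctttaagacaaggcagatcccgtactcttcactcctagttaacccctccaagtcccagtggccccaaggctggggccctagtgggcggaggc
Gpnmb: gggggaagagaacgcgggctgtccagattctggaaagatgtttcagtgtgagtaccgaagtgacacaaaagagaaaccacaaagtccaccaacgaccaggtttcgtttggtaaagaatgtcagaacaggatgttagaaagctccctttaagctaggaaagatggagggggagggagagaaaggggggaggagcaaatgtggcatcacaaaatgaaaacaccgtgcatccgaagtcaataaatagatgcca
The motifs, read on both strands, were the D-box forms TTACGTAA and TTATGTAA bound by E4BP4, a first E-box form, CACGTG, and a second, CATGTG, bound by basic helix-loop-helix factors such as Mitf and Tfeb, the AP-1 site TGANTCA, and GAGGAA, the core of sites of the myeloid factor PU.1. No matches overlapped one another in these windows. The D-box forms occurred in 0.113% and 0.819% of 32851 promoter windows of the same length, the E-boxes in 6.02% and 12.3%, the AP-1 site in 6.75% and the PU.1 core in 23.3%. Of the 9 receptors with a window (Msr1 was named only), none held a D-box or the first E-box. The second E-box was found before Stab1 and Timd4, the AP-1 site before Trem2, and the PU.1 core before Marco, Stab1, Axl and Trem2. The E-box of Timd4 and the PU.1 cores of Axl and Trem2 were found as the opposite strand's letters. A match is a run of letters and not a measured site, and a window without one says only that these letters are not in it.

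Macrophage-like cells held most transcripts of Stab1, Cd163, Mertk and Axl in both libraries, and most of Cd36, Msr1, Gpnmb and Trem2 in the library labelled TG alone. Over all kept cells, cluster 1 had 66.8% of Cd36, 82.8% of Stab1, 81.3% of Cd163, 74.4% of Mertk, 66.8% of Axl and 73.8% of Trem2 UMIs in the library labelled TG, against 31.9%, 68.3%, 89.7%, 57.6%, 69.4% and 41.9% in the WT library. These shares follow the number of cells as well as the level, since the WT library had more monocyte-like and fewer macrophage-like cells. At least 1 of the 10 receptors was detected in 80.8% of macrophage-like, 61.6% of monocyte-like and 18.4% of dendritic-like cells labelled TG, and in 80.1%, 67.1% and 9.1% of those cells in the WT library. B-like cells (cluster 0), which should lack macrophage receptors, give 1 measure of background. With a median of 2235 UMIs (TG) and 2445 UMIs (WT), at most 0.539% of them had a UMI of any receptor other than Cd36. Other clusters had more. Axl was detected in 2.43% of cells labelled TG in cluster 4, with all 12 T cell markers raised, and 1.76% of WT ones. In cluster 6, with all 10 neutrophil markers raised, it was detected in 3.59% and 1.08%. The source of these UMIs was not tested.

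**Figure D1:**
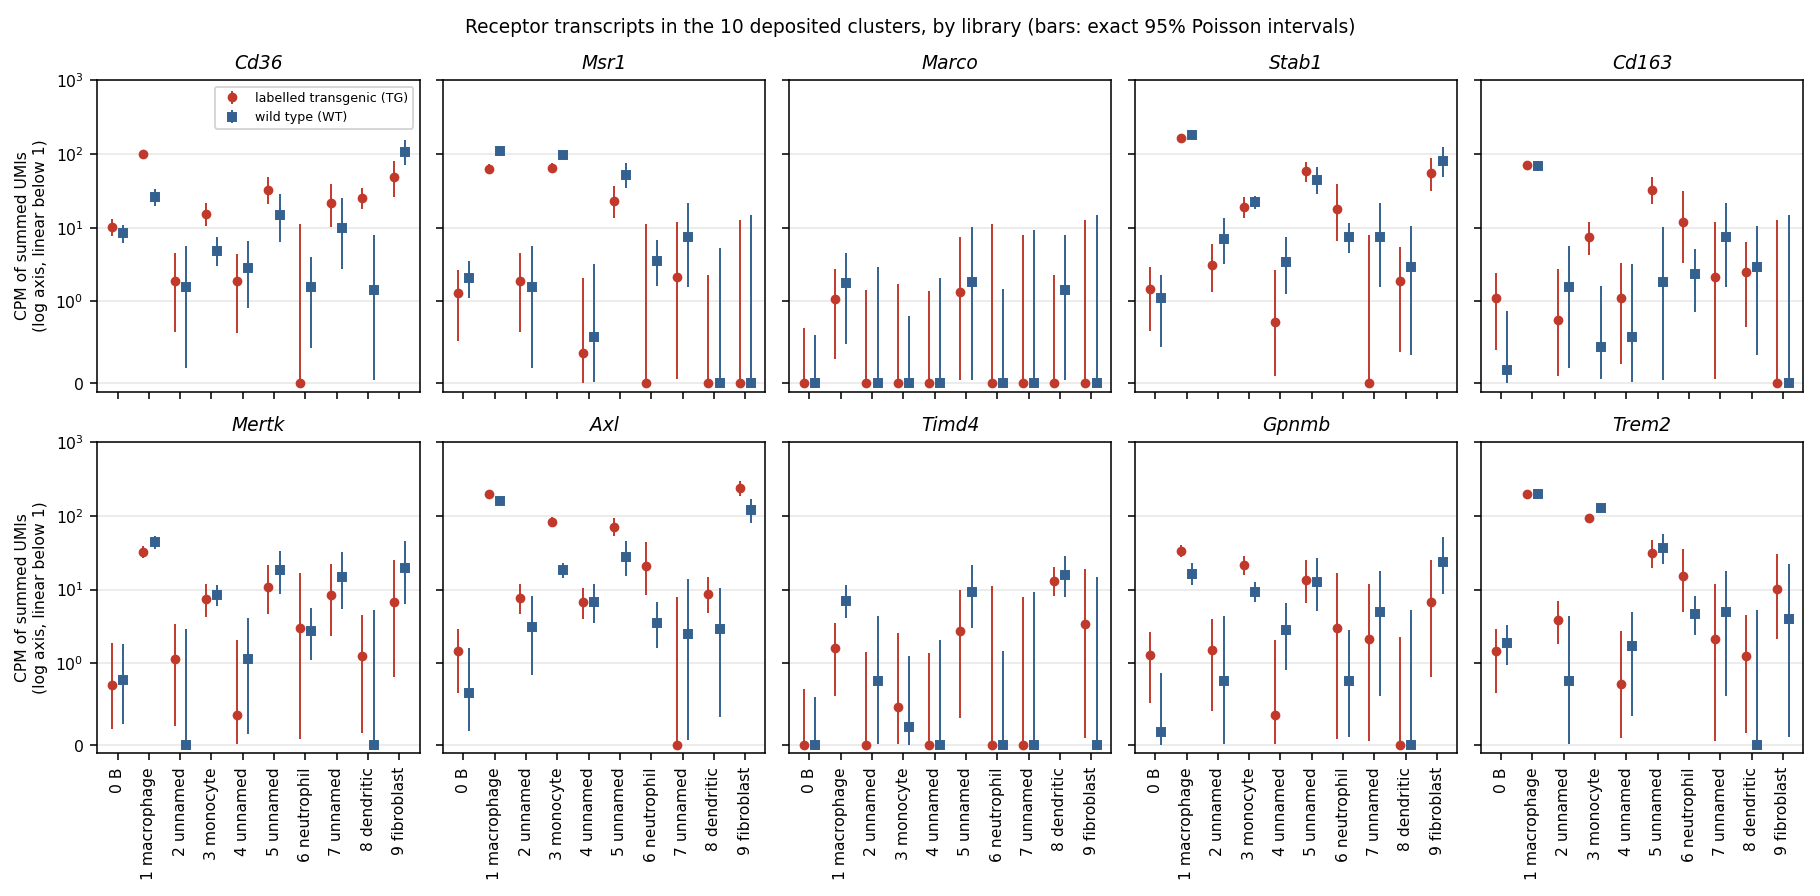
Level of each receptor (CPM of summed UMIs on a log axis, linear below 1) in the 10 deposited clusters, with the library labelled TG as circles left of the WT library as squares and bars for exact 95% Poisson intervals. Stab1, Cd163, Mertk and Trem2 are highest in cluster 1 (macrophage-like), while Cd36, Stab1 and Axl are also present in cluster 9 (fibroblast-like) and Timd4 in cluster 8 (dendritic-like), where it stood at 13.2 CPM in the library labelled TG and 15.9 CPM in the WT library.

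Cd36, a class B scavenger receptor that takes up oxidised lipoproteins and long-chain fatty acids, had the largest difference among the receptors of macrophage-like cells called higher. It had 374 UMIs, or 101 CPM (91.4 to 112), in the library labelled TG and 59 UMIs, or 26.2 CPM (19.9 to 33.8), in the WT library, a ratio of 3.87 (2.94 to 5.19). It was detected in 200 of 1106 cells labelled TG (18.1%) and 36 of 664 WT cells (5.42%). Once the 1034 cells labelled TG and 601 WT cells with at least 1000 UMIs were thinned to 1000, it was detected in 10.3% and 2.16% of them. The median depths of the cells were close, at 3082 UMIs (TG) and 3151 UMIs (WT). More cells carried the transcript, and no cell had more than 8 UMIs of it. Some barcodes that the metadata left out for their high number of genes matched the macrophage-like profile (338 TG and 324 WT). Among these Cd36 stood at 40.8 CPM in the library labelled TG and 11.3 CPM in the WT library, a ratio of 3.62 (2.56 to 5.23). There 5 barcodes held 46.0% of the UMIs labelled TG and 58.1% of the WT ones, and 1 barcode labelled TG held 30 of 139. Cd36 was detected in 12.4% and 5.86% of these barcodes.

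The order of Cd36 levels differed between the libraries (clusters 5 and 7, of few UMIs per cell, left aside). In the library labelled TG it ran from macrophage-like cells at 101 CPM, through fibroblast-like cells at 48.2 CPM (26.4 to 80.9), to dendritic-like cells at 25.1 CPM, monocyte-like cells at 15.2 CPM and B-like cells at 10.1 CPM, with intervals that meet between all neighbours after the first. In the WT library it ran from the fibroblast-like cluster at 107 CPM (70.7 to 156), through macrophage-like cells at 26.2 CPM, to B-like cells at 8.39 CPM. Monocyte-like cells followed at 4.89 CPM, with an interval that meets that of B-like cells, and then dendritic-like cells at 1.45 CPM. In that library the 15 fibroblast-like cells with Cd36 had transcripts of the endothelial marker Pecam1 and no UMI of Col1a1 or Dcn. Clusters 2 and 4, in which all 12 T cell markers were raised but whose leading genes leave them unnamed, lay between 1.58 and 2.84 CPM. Cd36 in B-like cells was spread over 48 cells in each library with at most 2 UMIs a cell, which makes 2.15% of those cells labelled TG and 1.99% of WT ones, against 0.376% to 1.099% in clusters 2 and 4. B-like cells with Cd36 had 3452 CPM of the B cell gene Cd79a in the library labelled TG and 3872 CPM in the WT library, against 3715 and 3871 CPM in B-like cells without it. Their C1qa, a macrophage transcript, stood at 32.7 CPM in the library labelled TG and 38.8 CPM in the WT library, against 29.1 and 32.8 CPM in B-like cells without Cd36.

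In monocyte-like cells Cd36 had 33 UMIs, or 15.2 CPM (10.5 to 21.4), in the library labelled TG and 22 UMIs, or 4.89 CPM (3.06 to 7.40), in the WT library, a ratio of 3.12 (1.76 to 5.61). They lay in 17 of 437 cells labelled TG and 13 of 814 WT cells, and in each library 5 cells held 63.6% of them. The cell with most Cd36 had 10 UMIs in the library labelled TG and 6 in the WT library. The finer clusters that hold the monocyte-like cells, taken whole, differed from each other. Finer cluster 3, the larger one, had 25.4 CPM in the library labelled TG and 2.46 CPM in the WT library. Finer cluster 11, whose leading gene is Arg1, had no Cd36 UMI among 238595 labelled TG and 18 UMIs (13.6 CPM) in the WT library. With the finer clusters weighted equally the ratio was 1.37, and with the cells clustered again without the receptors it was 1.46, neither of which is a call. Left-out barcodes of the monocyte profile had 53 UMIs (68.3 CPM) among 70 labelled TG and 27 UMIs (4.20 CPM) among 632 in the WT library, a ratio of 16.3, but 5 barcodes held 86.8% of the UMIs labelled TG.

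Dendritic-like cells carried Cd36 almost only in the library labelled TG. It had 40 UMIs over 29 of 282 cells (25.1 CPM) there and 1 UMI in 1 of 132 WT cells (1.45 CPM), a ratio of 17.3 whose interval runs from 2.94 to 701. Deeper barcodes of the dendritic profile that the metadata left out gave a smaller difference, with 238 UMIs over 133 of 466 barcodes (40.1 CPM) labelled TG and 71 UMIs over 37 of 308 barcodes (17.98 CPM) in the WT library, a ratio of 2.23 (1.71 to 2.95). The cells with Cd36 had more Clec9a and Xcr1, genes of the type 1 conventional dendritic cells that specialise in cross-presentation, although cells without Cd36 had these too. Of the 12 dendritic markers, 5 were higher in the kept cells with Cd36 labelled TG, 3 of them with intervals that do not meet. Another 6 were lower with intervals that do not meet. Over all 6282 genes with at least 20 UMIs in these cells, 37.7% were higher with Cd36, 2.87% with intervals that do not meet. Of the same genes, 343 were lower with intervals that do not meet. Kept cells with Cd36 in the library labelled TG had 343 CPM of Clec9a, 147 CPM of Xcr1 and 10.9 CPM of Cd209a, a gene of type 2 cells, against 109, 37.5 and 593 CPM in those without. The left-out barcodes showed this in both libraries, although those with Cd36 were also deeper, with a median of 14267 UMIs labelled TG and 16785 UMIs in the WT library against 10762 and 11407 UMIs without. Clec9a stood at 291 CPM with Cd36 and 112 CPM without in the library labelled TG, and at 291 and 90.1 CPM in the WT library. Xcr1 stood at 206 and 67.6 CPM in the library labelled TG, and at 247 and 44.4 CPM in the WT library.

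Msr1, the class A scavenger receptor of modified lipoproteins, went the other way in macrophage-like cells. It had 234 UMIs, or 63.5 CPM (55.6 to 72.1), in the library labelled TG and 244 UMIs, or 108 CPM (95.2 to 123), in the WT library, a ratio of 0.586 (0.487 to 0.704), and was detected in 16.5% and 27.4% of cells (6.87% and 10.5% after thinning). The left-out barcodes gave 66.7 CPM labelled TG and 105 CPM in the WT library, a ratio of 0.636 (0.538 to 0.750). Macrophage-like cells and monocyte-like cells had close levels within each library, at 63.5 and 64.7 CPM in the library labelled TG and at 108 and 97.8 CPM in the WT library, with intervals that meet. Lymphocyte and dendritic-like clusters had little: none of 282 dendritic-like cells labelled TG and none of 132 WT ones had an Msr1 UMI, which allows shares of cells with a UMI of up to 1.06% and 2.27% at this depth (3 counts). In the deeper left-out barcodes of that profile, 9 of 466 labelled TG and 9 of 308 in the WT library had one. The monocyte-like ratio of 0.661 (0.543 to 0.802) did not hold within the finer clusters. Finer cluster 3 had 54.0 CPM in the library labelled TG and 69.5 CPM in the WT library, a ratio of 0.776, and finer cluster 11 had 205 and 177 CPM, a ratio of 1.16. Finer cluster 11, where Msr1 was highest, held 50 of the 437 monocyte-like cells labelled TG and 202 of the 814 in the WT library.

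Marco, a class A receptor of bacteria typical of marginal zone and alveolar macrophages, was nearly undetected, with 5 UMIs labelled TG and 6 WT UMIs over all kept cells, 4 of each in macrophage-like cells. Stab1, a receptor of phosphatidylserine and of acetylated lipoproteins, was among the more evenly matched. It had 613 UMIs, or 166 CPM, in macrophage-like cells labelled TG and 409 UMIs, or 182 CPM, in WT ones, a ratio of 0.915 (0.806 to 1.04). Detection was also close, in 32.0% of macrophage-like cells labelled TG and 34.6% of WT ones. The left-out macrophage-like barcodes had 95.5 CPM in the library labelled TG and 145 CPM in the WT library, a ratio of 0.659. Fibroblast-like cells, at 55.1 CPM (TG) and 79.4 CPM (WT), and cluster 5, at 58.5 and 44.1 CPM, came next with intervals that meet, and then monocyte-like cells at 18.9 and 22.2 CPM.

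Cd163, the haemoglobin-haptoglobin receptor of resident macrophages, was not called in macrophage-like cells. It had 261 UMIs, or 70.8 CPM, in the library labelled TG and 156 UMIs, or 69.3 CPM, in the WT library, a ratio of 1.02 (0.835 to 1.25), in 127 cells labelled TG and 65 WT cells. With the finer clusters weighted equally the ratio was 1.70, past the call, but that value rests on few UMIs. In finer cluster 1, with 994 and 587 of these cells, Cd163 stood at 75.4 CPM labelled TG and 76.2 CPM in the WT library. Finer clusters 3 and 7, given the same weight, had 5 and 2 UMIs labelled TG and 0 in the WT library. Outside the macrophage-like cluster it was rare in the WT library, with 2 UMIs (0.445 CPM) in monocyte-like cells and 1 UMI in cluster 5, an unnamed cluster of few UMIs per cell. The library labelled TG had 16 UMIs (7.39 CPM) in monocyte-like cells and 24 UMIs (32.6 CPM) in cluster 5. Of those 16, 9 lay in the 46 monocyte-like cells that the finer setting put into cluster 9, which had 9 of 12 dendritic cell markers raised. The 18 monocyte-like UMIs are fewer than the 20 needed for a call.

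Of the receptors that engage phosphatidylserine through bridging proteins, Axl was called higher in monocyte-like cells. It had 178 UMIs, or 82.2 CPM (70.6 to 95.2), over 112 of 437 cells in the library labelled TG, and 82 UMIs, or 18.2 CPM (14.5 to 22.6), over 58 of 814 cells in the WT library, a ratio of 4.51 (3.45 to 5.93). After thinning, 8.70% of cells labelled TG and 1.60% of WT cells had a UMI, and the median depth was lower in the library labelled TG (5054 UMIs) than in the WT library (5715.5 UMIs). The direction was shared by the 3 finer clusters that hold most of these cells. The monocyte-like cells of finer cluster 3 had 96.3 CPM labelled TG and 23.8 CPM in the WT library, those of finer cluster 9 had 48.3 and 9.04 CPM from 14 UMIs in all, and those of finer cluster 11 had 25.3 and 5.46 CPM from 13. The left-out monocyte-like barcodes gave 47.7 CPM in the library labelled TG and 24.9 CPM in the WT library, a ratio of 1.92 (1.30 to 2.75). No 5 cells carried the difference: without the 5 cells with most Axl in each library the ratio was 5.16.

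In macrophage-like cells Axl stood at 200 CPM in the library labelled TG and 160 CPM in the WT library, a ratio of 1.25 (1.102 to 1.42) that was not a call. It was 1.76, past the call, with the finer clusters weighted equally. Finer cluster 1, with 994 and 587 of these cells, had 201 CPM labelled TG and 169 CPM in the WT library. Finer clusters 3 and 7, given the same weight, had 44 and 15 UMIs labelled TG and 12 and 4 in the WT library. Left-out macrophage-like barcodes had 171 and 161 CPM. Monocyte-like cells were thus below macrophage-like cells in both libraries, at 82.2 against 200 CPM in the library labelled TG and 18.2 against 160 CPM in the WT library. Fibroblast-like cells had Axl levels near those of macrophages, at 238 CPM (185 to 301) in the library labelled TG and 119 CPM (80.4 to 170) in the WT library, from 69 and 30 UMIs.

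Mertk, the receptor that mature tissue macrophages use most for apoptotic cells, was lower without reaching the call. It had 119 UMIs, or 32.3 CPM, in macrophage-like cells labelled TG and 99 UMIs, or 44.0 CPM, in WT ones, a ratio of 0.734 (0.558 to 0.968). The ratio was past the call, at 0.639, with the cells clustered again and, at 0.665, as the mean of per-cell CPM. Left-out barcodes gave 16.5 CPM in the library labelled TG and 29.9 CPM in the WT library, a ratio of 0.551 (0.393 to 0.765). Monocyte-like cells had 7.39 CPM (TG) and 8.45 CPM (WT).

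Timd4, a direct phosphatidylserine receptor of self-maintaining macrophages, was rare, with 31 UMIs labelled TG and 34 WT UMIs in all kept cells. Macrophage-like cells had 6 UMIs in 6 cells labelled TG and 16 UMIs in 10 WT cells, 1.63 against 7.11 CPM, a ratio of 0.229 (0.0734 to 0.616). With the left-out barcodes, which had 11 UMIs in each library, the ratio was 0.539. Without the barcodes of high doublet score, or without the 5 cells with most UMIs, fewer than 20 UMIs were left and no call was possible. Dendritic-like cells had the most, 13.2 CPM labelled TG and 15.9 CPM in the WT library, from 21 and 11 UMIs in only 8 and 4 cells. Some of those cells carried Ccr7, a gene of mature migratory dendritic cells. It was detected in 3 of the 8 cells labelled TG and 3 of the 4 WT cells. Summed over the 8 cells labelled TG, Ccr7 stood at 1365 CPM, against 720 CPM in the other cells of the cluster, and over the 4 WT cells at 4717 CPM, against 949 CPM. Of the 12 dendritic markers 4 were higher in the cells with Timd4 labelled TG, 2 of them with intervals that do not meet. Another 4 were lower with such intervals. In the WT library 3 of 10 were higher, 3 with such intervals, and 4 were lower with them. Over all genes with at least 20 UMIs, 42.5% were higher in the cells with Timd4 labelled TG, 2.1% with such intervals. Lower with such intervals were 86 of 6282. In the WT library these were 37.4%, 4.42% and 135 of 3895. In left-out barcodes Ccr7 was detected in 7 of 19 with Timd4 labelled TG (739 CPM, against 161 CPM without) and in 5 of 14 in the WT library (1825 CPM, against 203 CPM).

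Gpnmb was called higher in macrophage-like cells, with 123 UMIs, or 33.4 CPM (27.7 to 39.8), in the library labelled TG and 37 UMIs, or 16.4 CPM (11.6 to 22.6), in the WT library, a ratio of 2.03 (1.40 to 3.02). It was detected in few cells, 48 of 1106 (4.34%) labelled TG and 20 of 664 (3.01%) in the WT library. Part of the difference lay in the 41 macrophage-like cells of each library that the finer setting put into cluster 3, where 6 cells labelled TG held 41 UMIs and 1 WT cell held 5. In finer cluster 1 alone the ratio was 1.39 (0.900 to 2.19), not a call. The left-out barcodes had 52.9 CPM in the library labelled TG and 29.1 CPM in the WT library, a ratio of 1.82 (1.43 to 2.32). There 5 barcodes held 65.6% of the UMIs labelled TG and 62.2% of the WT ones, and 1 barcode labelled TG held 58 of 180. Gpnmb was detected in 10.1% and 7.41% of these barcodes. The monocyte-like difference rested on single cells: of 47 UMIs (21.7 CPM) labelled TG, 42 came from 1 cell and all from 4, whereas the 42 WT UMIs (9.34 CPM) came from 12 cells. That ratio, 2.33 (1.501 to 3.61), rests mainly on 1 cell.

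Trem2 was matched in macrophage-like cells, with 723 UMIs, or 196 CPM, in the library labelled TG and 449 UMIs, or 199 CPM, in the WT library, a ratio of 0.983 (0.873 to 1.11). It was detected in 34.5% of macrophage-like cells labelled TG and 36.4% of WT ones. Left-out barcodes had 162 and 161 CPM. Monocyte-like cells had less, 93.8 CPM labelled TG and 127 CPM in the WT library, a ratio of 0.739 (0.626 to 0.869) that is short of the call. Finer cluster 11, at 37.7 and 62.1 CPM, had less than finer cluster 3, at 126 and 162 CPM.

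**Figure D2:**
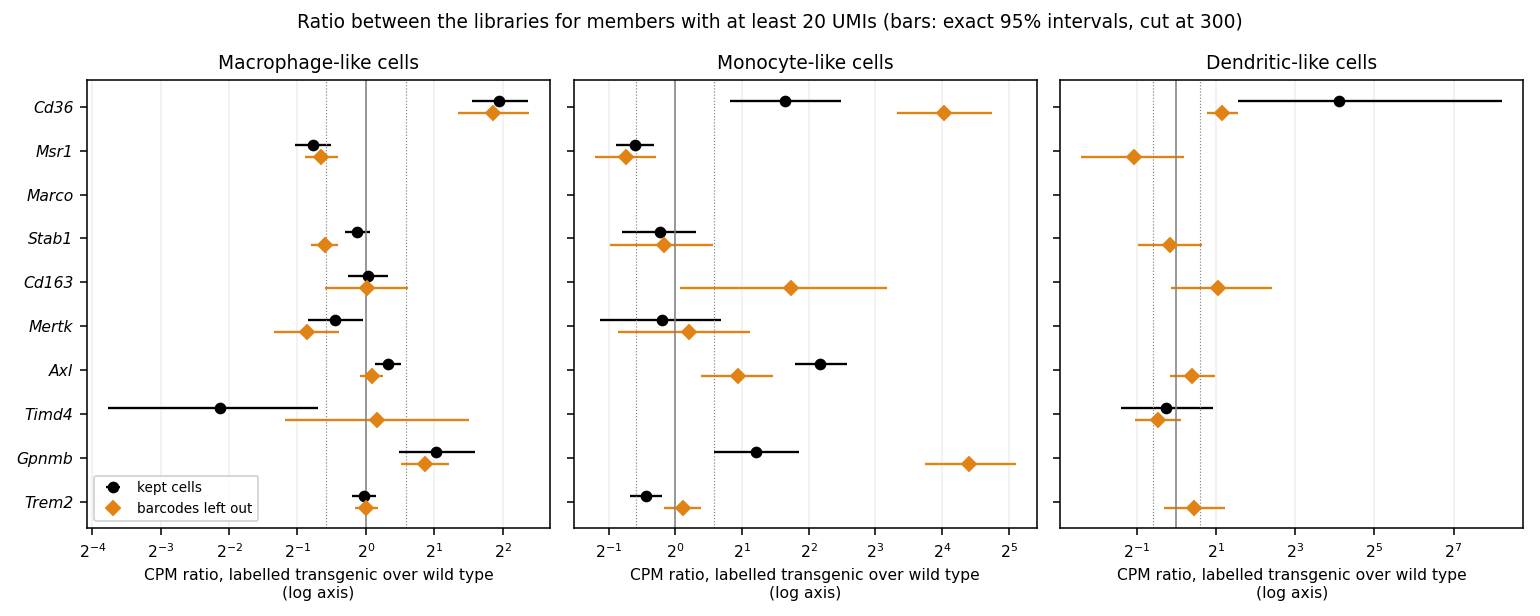
Ratio of CPM, library labelled TG over WT library (log axis), for receptors with at least 20 UMIs and a UMI in each library, in kept cells (circles) and in barcodes the metadata left out for gene number (diamonds), with exact 95% intervals and dotted lines at 1.5-fold. Cd36 lies right of 1 in all 3 classes, at 3.87, 3.12 and 17.3 in kept cells, Msr1 lies left of 1 in both macrophage-like cells (0.586) and monocyte-like cells (0.661), and Axl is apart in monocyte-like cells at 4.51.

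In all, 2 receptors (Cd36, Gpnmb) of the 9 with at least 20 UMIs were called higher and 2 (Msr1, Timd4) lower in macrophage-like cells of the library labelled TG. Over all 10213 genes counted there, 8.66% were called higher and 8.52% lower, 17.2% in either direction. In monocyte-like cells 3 receptors (Cd36, Axl, Gpnmb) of 7 were called higher and 1 (Msr1) lower, beside 14.9% and 9.05% of 9302 genes, or 23.9% in either direction. Dendritic-like cells had 2 receptors with enough UMIs, of which Cd36 was called higher, beside 11.5% of 7349 genes called higher, 11.4% lower and 22.9% in either direction. The median log2 ratio over the receptors was -0.02 in macrophage-like and -0.19 in monocyte-like cells, and over all genes -0.04 and 0.08.

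Markers of other cell types also differed between the libraries within these clusters. In macrophage-like cells the 12 T cell markers summed to 597 CPM in the library labelled TG and 259 CPM in the WT library, the 9 natural killer markers to 256 and 52.8 CPM, the 10 neutrophil markers to 113 and 552 CPM and the 10 monocyte markers to 756 and 1387 CPM. None of the T cell, neutrophil or monocyte markers was at 0 in either library, and 2 natural killer markers were at 0 in the WT library. In monocyte-like cells the neutrophil markers summed to 295 CPM labelled TG and 2535 CPM in the WT library, the 12 dendritic markers to 987 and 354 CPM and the 12 macrophage markers to 6269 and 4911 CPM. The T cell markers summed to 81.8 CPM labelled TG and 19.6 CPM in the WT library there, and the natural killer markers to 95.2 and 19.6 CPM. In dendritic-like cells the neutrophil markers summed to 224 and 661 CPM, the innate lymphoid markers to 20.7 and 108 CPM and the macrophage markers to 314 and 304 CPM. The part of these in the receptor differences was not tested. In the 495 macrophage-like cells labelled TG and 163 WT cells without a UMI of 12 T, natural killer, B and neutrophil genes, a subset added after seeing the data, the Cd36 ratio was 3.21 and the Msr1 ratio 0.635.

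Of macrophage-like cells, 50.5% labelled TG and 50.6% in the WT library had at least 2 receptors, and some pairs met more or less often than independent detection gives. Cd36 and Cd163 shared cells: 71 cells labelled TG and 12 WT cells had both, against 23.0 and 3.52 from independent detection, an excess of 3.09 and 3.41 times. Cd163 and Axl met less often, with 17 and 5 cells against 50.8 and 21.2, or 0.335 and 0.235 times. Cd36 and Axl met in 48 cells labelled TG and 8 WT cells, 0.601 and 0.680 times the independent number. Gpnmb met Trem2 in 30 of its 48 cells labelled TG and in 11 of its 20 WT cells, 1.81 and 1.51 times, and met Cd163 in 2 and 1. Deeper cells detect more of every gene, which by itself raises such ratios: cells with Axl had a median of 4079 UMIs (TG) and 4241 UMIs (WT), and cells with Cd163 had 2301 and 2535 UMIs. After thinning to 1000 UMIs, Cd36 with Cd163 had ratios of 3.36 and 3.65, from 20 cells labelled TG and 3 WT cells, and Cd163 with Axl 0.427 and 0.211, from 4 and 1. Gpnmb with Trem2 then had 1.83 and 1.08, from 6 and 1 cells, and Cd36 with Axl 0.526 and 0, from 9 and 0. These are descriptions of cells of 1 library each, with no test.

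**Figure D3:**
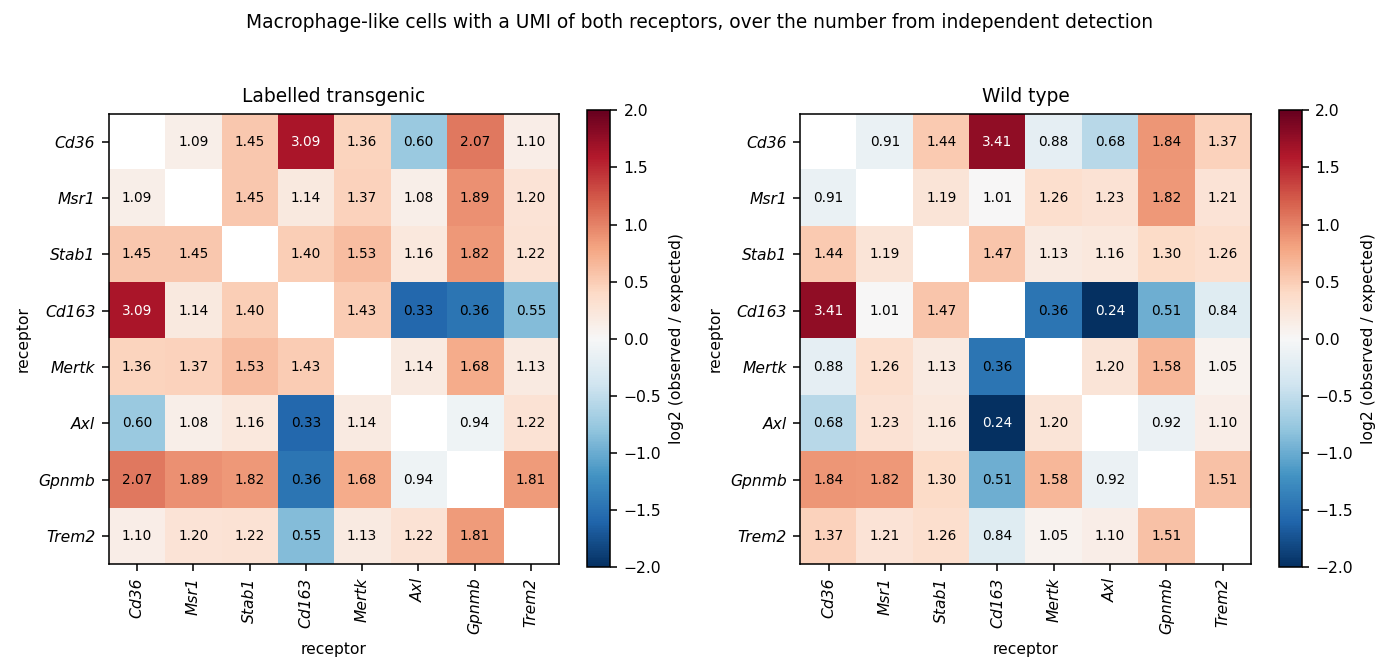
Number of macrophage-like cells with a UMI of both receptors of a pair, divided by the number that independent detection would give (colour, log2 scale; figures in the squares, linear scale), for the library labelled TG (left) and the WT library (right), with the rare Marco and Timd4 left out. Among the 8 receptors drawn, Cd36 with Cd163 has the largest excess in each library (3.09 and 3.41) and Cd163 with Axl the largest deficit (0.335 and 0.235).

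Levels per UMI were read from the same cells and counts, so they restate this grouping and are no separate evidence for it. Macrophage-like cells with a Cd163 UMI had 437 CPM of Cd36 in the library labelled TG and 131 CPM in the WT library, against 68.0 and 16.9 CPM in cells without. Cd36 was thus higher in the library labelled TG both within the Cd163 cells and outside them. The same cells had 547 and 409 CPM of Folr2 (a folate receptor) and 505 and 622 CPM of Lyve1 (a hyaluronan receptor), against 63.8 and 52.2 CPM and 18.2 and 24.2 CPM in cells without Cd163. Axl ran the other way, at 68.8 CPM (TG) and 54.6 CPM (WT) with Cd163 and 213 and 169 CPM without. Gpnmb set cells with Cd36 and cells with Cd163 apart. It stood at 103 CPM (TG) and 54.7 CPM (WT) with Cd36, against 18.7 and 14.5 CPM without. With Cd163 it stood at 5.98 CPM (TG) and 5.46 CPM (WT), from 2 UMIs and 1 UMI, against 36.1 and 17.4 CPM without. Of the 6 macrophage-like cells labelled TG with Timd4, 4 also had Cd163, and of the 10 in the WT library, 6. Folr2 and Lyve1 were named after their values were seen.

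The 15 genes of the lipid list were compared between cells with and without Gpnmb. The 48 macrophage-like cells labelled TG with Gpnmb had 929 CPM of Fabp5 and 235 CPM of Fabp4, fatty acid binding proteins, 185 CPM of Lpl, the lipoprotein lipase, and 534 CPM of Plin2, a lipid droplet protein, against 158, 10.0, 41.9 and 214 CPM in cells without. The 20 WT cells with Gpnmb had 887 CPM of Fabp5, 120 CPM of Lpl and 240 CPM of Plin2, against 323, 23.5 and 184 CPM, but no Fabp4 UMI. Trem2 in these cells was 435 CPM labelled TG and 348 CPM in the WT library, against 182 and 194 CPM without Gpnmb. They held 47 of the 82 Fabp4 UMIs of macrophage-like cells labelled TG, in 9 cells. Of 15 lipid genes, 11 were higher in cells with Gpnmb in the library labelled TG, 8 of them with intervals that do not meet, and in the WT library 13 of 14 were higher, 3 with intervals that do not meet. Over all genes with at least 20 UMIs, 40.4% were higher in cells with Gpnmb labelled TG, 2.98% with intervals that do not meet, and in the WT library 44.2% and 2.26%. In the monocyte-like cells labelled TG, 43 of the 58 Fabp4 UMIs and 10 of the 33 Cd36 UMIs lay in 1 of the 4 cells with Gpnmb.

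**Figure D4:**
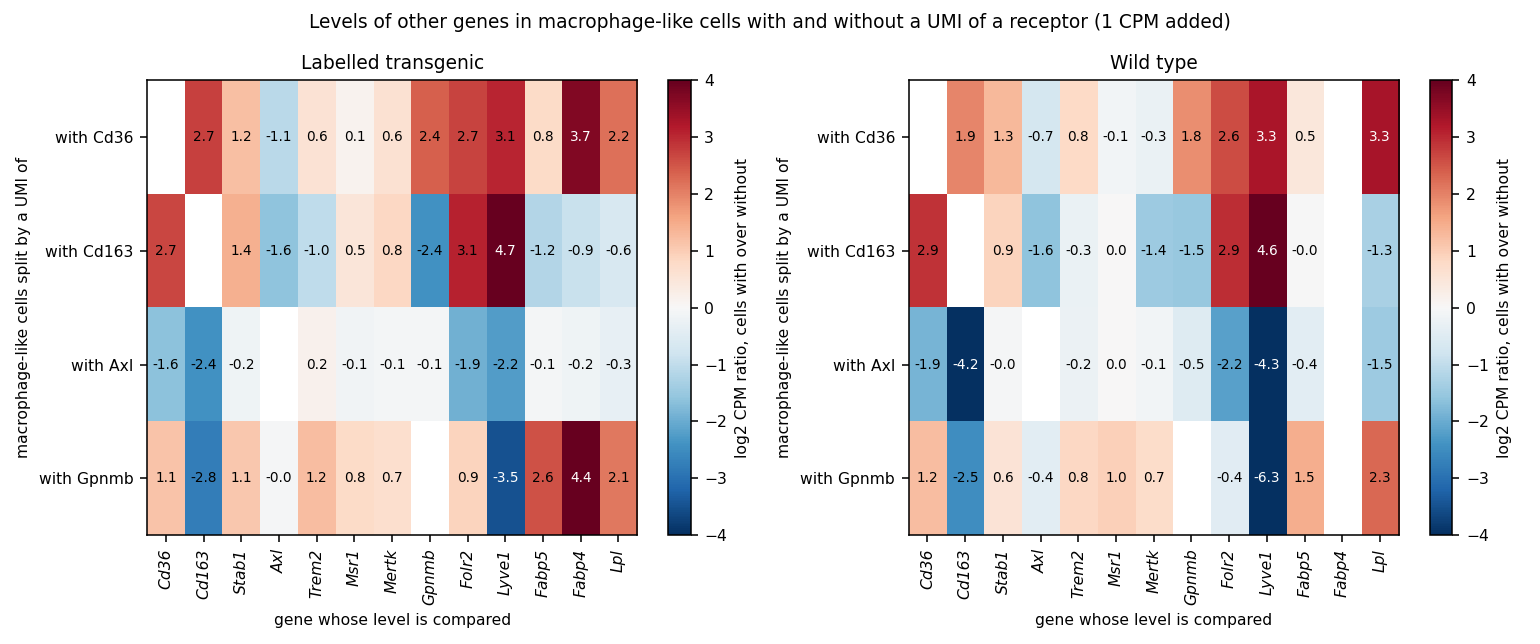
Levels of other genes in macrophage-like cells with a UMI of Cd36, Cd163, Axl or Gpnmb over those without (log2 ratio of CPM with 1 CPM added), for the library labelled TG (left) and the WT library (right); squares are blank for the gene itself and below 20 UMIs. Cells with Cd36 or Cd163 are high in Folr2 and Lyve1, cells with Axl are low in them, and cells with Gpnmb are high in Fabp5 and Lpl in both libraries.

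The fibroblast-like cluster 9 (107 cells labelled TG and 103 WT cells) held receptor transcripts in cells of 2 kinds. Cells with Axl, 39 labelled TG and 21 in the WT library, were higher in all 8 fibroblast markers and lower in all endothelial markers with at least 20 UMIs (6 in the library labelled TG, 7 in the WT library). Cells with Stab1, 10 in each library, were the reverse: they had 1144 CPM of Pecam1 labelled TG and 1422 CPM in the WT library, against 92.4 and 320 CPM in the others, and no UMI of Col1a1 or Dcn, against 2619 and 3661 CPM of Col1a1 in the others. The 15 WT cells with Cd36 had 1417 CPM of Pecam1 and no Col1a1 or Dcn UMI, while the 10 cells labelled TG had 621 CPM of Pecam1 and 1896 CPM of Col1a1. Endothelial markers with at least 20 UMIs were all higher in the cells with Cd36, 6 of 6 in the library labelled TG and 7 of 7 in the WT library.

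Over the finer clusters of both libraries (30 points, which share the 2 libraries and their depths), the genes with the level pattern most like each receptor were found by Pearson's r of log2(CPM + 10). Trem2 followed C1qb (0.943), C3ar1 and C1qc, Msr1 followed Ms4a4a (0.949), Fcgr1 and F13a1, and Stab1 followed Itga9 (0.913), Hebp1 and Vcam1. Cd163 followed Dnase1l3 (0.926), Folr2 and Fcrls, Axl followed Dhrs3 (0.922), Tnfsf12 and Camk1, and Mertk followed Abcc3 (0.887), Cbr2 and Glul. Cd36 had Igf1 (0.874), Ptgs1 and Vcam1, and Gpnmb the weakest matches, Idh1 (0.760), B4galt6 and Tnfrsf21. Marco, with 11 UMIs, and Timd4, with 65, were too rare to rank.

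The genes around the receptors were read from 8 lists by role, with 97 genes in all. In macrophage-like cells 85 of them had at least 20 UMIs and 12 were called, 5 higher and 7 lower, or 14.1% beside 17.2% of all genes. Among bridging proteins and opsonins 0 of 10 were called higher and 2 lower: Thbs1, which links apoptotic cells to Cd36, stood at 164 CPM in the library labelled TG and 639 CPM in the WT library (ratio 0.257), and the complement component C3 at 15.2 and 40.4 CPM. Neither bridging protein of Mertk and Axl was called: Pros1 stood at 30.1 CPM in the library labelled TG and 34.6 CPM in the WT library, and Gas6 at 119 CPM in the library labelled TG and 121 CPM in the WT library (ratio 0.981). Of 7 other phosphatidylserine receptors with enough UMIs, 1 was called lower, Cd300lf at 8.68 CPM (TG) and 24.9 CPM (WT). Of 9 other scavenger receptors 1 was called lower, the lipoprotein receptor Lrp1 at 79.7 and 133.7 CPM. The Trem2 signalling list had 1 of 8 called higher, the adaptor Hcst at 149 CPM labelled TG and 91.9 CPM in the WT library, and the engulfment machinery had 0 of 13 called.

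Lipid genes of macrophage-like cells were called higher in 2 cases and lower in 1 of 15. Fabp4 had 82 UMIs, or 22.2 CPM, in the library labelled TG and 4 UMIs, or 1.78 CPM, in the WT library (ratio 12.5, 4.71 to 47.0), and Lpl stood at 49.6 and 27.1 CPM. Fabp5 was lower, at 200 CPM labelled TG and 344 CPM in the WT library. Of 17 regulators Klf2 (852 and 473 CPM) and Tfeb (29.0 and 19.1 CPM) were called higher and Mitf (28.7 and 46.2 CPM) lower, and of 6 genes of shedding and don't-eat-me signals Pilra (84.1 and 146 CPM) was lower. The list medians ran from -0.15 to 0.11 on the log2 scale.

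In monocyte-like cells 83 of the 97 had at least 20 UMIs and 25 were called, 15 higher and 10 lower, or 30.1% beside 23.9% of all genes. Opsonins included C1qa at 487 CPM in the library labelled TG and 240 CPM in the WT library, C1qb at 1004 and 533 CPM, and C1qc at 558 and 246 CPM, while Thbs1 stood at 1236 and 1960 CPM. Mfge8, a bridging protein, had 15 and 17 UMIs, a ratio of 1.83 whose interval (0.853 to 3.90) holds 1. Lipid genes called higher included Lpl (71.1 and 11.1 CPM), Fabp4 (26.8 and 3.33 CPM) and Mylip, a ubiquitin ligase (31.4 and 16.9 CPM), and the cholesterol exporter Abca1 was lower (43.4 and 107 CPM). Most of the Fabp4 UMIs labelled TG lay in 1 cell with Gpnmb, as given above. Scavenger receptors went in both directions, with Mrc1 higher (100 and 58.2 CPM) and Cd14 (1405 and 3640 CPM), Lrp1 (165 and 248 CPM) and Olr1 (9.24 and 15.6 CPM) lower. Lower phosphatidylserine receptors were Itgb5 (55.9 and 88.2 CPM) and Cd300lf (39.3 and 61.8 CPM). Siglecg, an inhibitory lectin of B cells and phagocytes, had 33 UMIs labelled TG and 12 in the WT library (15.2 and 2.67 CPM). Regulators called higher were Klf2 (506 and 277 CPM), Klf4 (258 and 151 CPM) and Pparg from 11 and 13 UMIs, and the remaining calls were Elmo2 and Crkl higher and Rac2, Adam10 and Pilra lower.

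**Figure D5:**
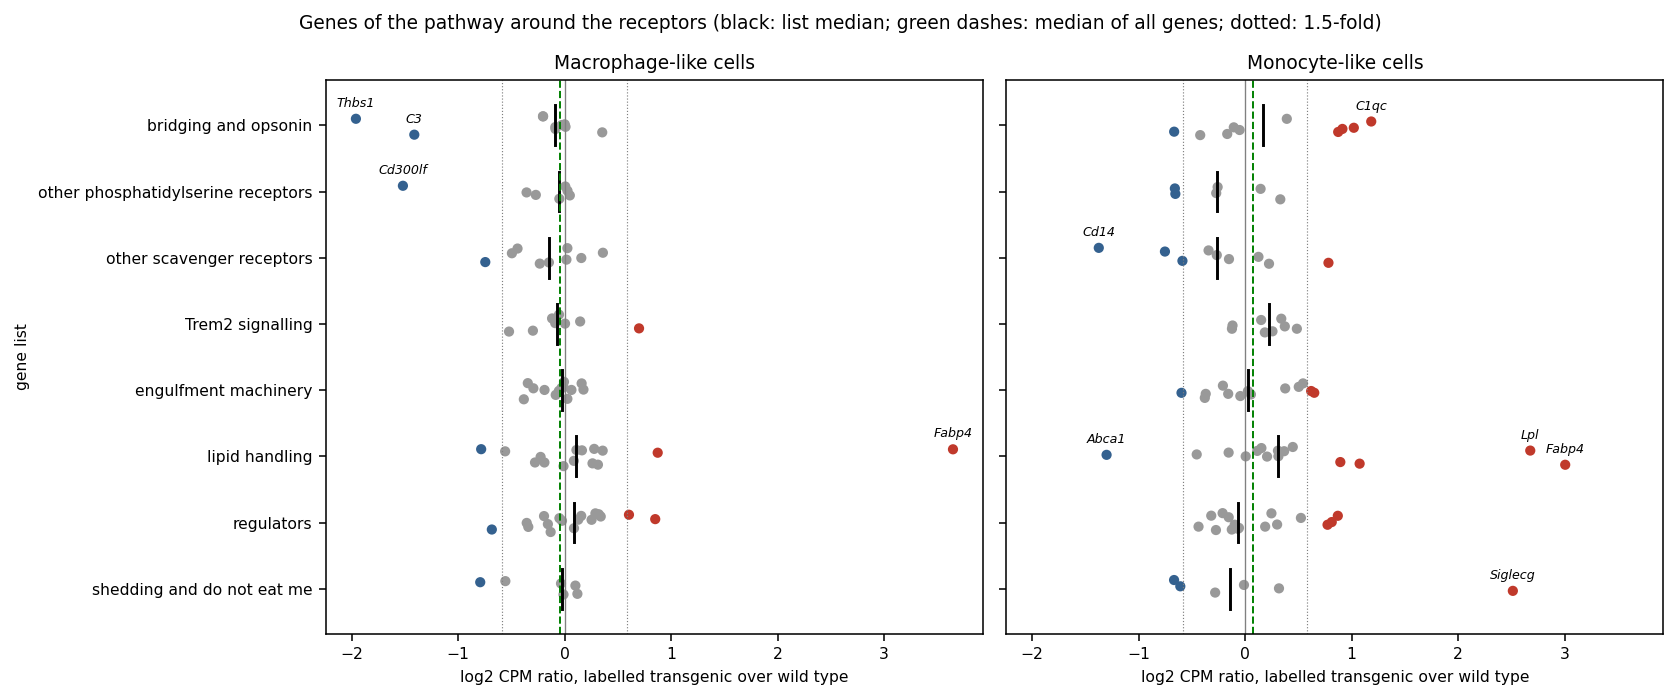
log2 ratio of CPM, library labelled TG over WT library, for the genes of 8 lists with at least 20 UMIs in macrophage-like (left) and monocyte-like cells (right), red where called higher and blue where called lower, with black bars for list medians and a green dashed line for the median of all genes (-0.04 and 0.08). The list medians lie between -0.27 and 0.31, and Fabp4, Thbs1, Cd300lf and C3 stand out in macrophage-like cells.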

How the data were processed

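Both libraries were made with the 10x 5′ kit (version 1.1), per the labels' protocols, and Cell Ranger 5.0.0, Seurat 4.0 and mm10 are named in the submitters' processing notes. The authors deposited raw UMI counts per gene and barcode, with metadata that give percentages of mitochondrial and immunoglobulin UMIs and cluster numbers for the kept cells. No kept cell exceeded 2200 genes or 5% immunoglobulin UMIs, a limit found in the values. The genotype of each library came from the labels. With 1 library per genotype, cells were not used as replicates.

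Counts were summed per cluster and library and given as CPM with exact Poisson limits, ratios with conditional binomial limits and shares of cells with Clopper-Pearson limits, all at 95%. Shares were also computed after thinning cells to 1000 UMIs, with cells of fewer UMIs left out. Clusters were named from marker lists. Scrublet called 1 barcode in the library labelled TG and 0 in the WT library, which is too few to have worked, so the 8% of barcodes with the highest scores were left out only as an alternative. Left-out barcodes were assigned to the cluster whose profile they matched best, a rule that gave 84.5% of kept cells their deposited class. The members, the lists and the tests were chosen with earlier results of these data known. Text names the 10 receptors, up to 4 called genes each way per pathway list and the 3 genes most like each receptor. Gas6, Pros1 and the companion genes of split cells were named after their values were seen. The ratio and its limits were tested on simulated Poisson counts, which is the counting error the limits assume. Clumping of UMIs in few cells was not simulated. Python 3.11.15, scanpy 1.11.5, scipy 1.17.1, numpy 2.4.6 and pandas 2.3.3 were used. The values of 1 pathway gene are not reported here.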

Additional observations from a re-analysis of the deposited data

How the results depend on the processing

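No paired analysis was possible because each genotype had 1 library, and no replicate could be left out. In macrophage-like cells the Cd36 ratio ran from 3.21 to 5.67 and the Msr1 ratio from 0.534 to 0.635 over the alternatives run. Other macrophage-like ratios moved more: Gpnmb ran from 1.39 to 5.05, Cd163 from 0.846 to 1.70, Axl from 1.102 to 1.76 and Timd4 from 0.180 to 0.539, and 3 to 6 receptors were called. In monocyte-like cells the Axl ratio ran from 3.30 to 5.16, Cd36 from 1.37 to 10.3 and Gpnmb from 1.39 to 10.9. Of the pathway genes called in macrophage-like cells (12), 4 remained at a 2-fold size, while 34 were called with the finer clusters weighted equally. The receptors called in monocyte-like cells numbered 4, but 2 when the cells were clustered again and 2 with the finer clusters weighted equally, where the Msr1 ratio was 1.07. The pathway genes called there (25) numbered 8 at a 2-fold size, 14 with the barcodes left out for gene number added, and 11 when the cells were clustered again. The receptors called in dendritic-like cells (1) numbered 0 with at least 50 UMIs, 2 with at least 10, 3 with the left-out barcodes, 4 when clustered again and 3 in finer cluster 9 alone, the last chosen after seeing the data. Receptors most often detected in cluster 1 in both libraries numbered 5, namely Stab1, Cd163, Mertk, Axl and Gpnmb. After thinning Msr1 and Trem2 replaced Axl and Gpnmb, so the number stayed at 5. Receptor pairs met at least 1.5 times as often as independent detection gives in both libraries in 7 cases, or 5 after thinning. Only Cd36 with Cd163, Cd163 with Timd4 and Mertk with Gpnmb were in both sets. After thinning, Cd163 with Timd4 met in 1 cell labelled TG and 4 WT cells, and Mertk with Gpnmb in 3 and 1. The causes were not tested. Without the 5 cells with most UMIs, Gpnmb in monocyte-like cells gave no value, since only 4 cells labelled TG had it. Marco throughout, and every receptor but Cd36 and Timd4 in kept dendritic-like cells, had too few UMIs for a call.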
